A study of Homo sapiens with 8 samples.

Results

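The 10 genes described here encode abundant proteins of the actin cytoskeleton, and they were chosen by name: the actins ACTB and ACTG1, the actin-binding proteins CFL1, PFN1, TMSB4X and TMSB10, the myosin light chains MYL6, MYL12A and MYL12B, and TAGLN2. They are 10 of the 63568 genes of the count table, all 10 had at least 10 reads over both inputs, and 8 had at least 10 reads in each input. The RNA came from MIAPaCa-2, a human pancreatic cancer cell line, carrying either a control short hairpin RNA (shRNA-Control) or one against METTL3 (shRNA-METTL3, METTL3-KD), the enzyme that writes N6-methyladenosine (m6A) on mRNA. Fragmented RNA was sequenced before (input, named Total in the labels) and after precipitation with an anti-m6A antibody (m6A RNA immunoprecipitation sequencing, MeRIP-seq), to find genes whose methylation and level depend on METTL3. By the lane numbers in their titles, the 8 samples were read as the 2 lanes of 4 libraries. On that reading each condition had 1 input library and 1 m6A library, the lanes repeat only the sequencing, and no test between the conditions was possible. How many cultures or clones stand behind each library is not given in the sources used here.

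Actin is a monomer that assembles into filaments, and cells hold a pool of free monomers beside the filaments. Cofilin (CFL1) severs filaments, profilin (PFN1) feeds monomers to growing ends, and the thymosins beta 4 (TMSB4X) and beta 10 (TMSB10) bind monomers and hold them back. Nonmuscle myosin pulls on the filaments and needs the essential light chain MYL6 and the regulatory light chains MYL12A and MYL12B, while transgelin-2 (TAGLN2) binds and stabilises filaments. Many of these transcripts are among the most abundant mRNAs of cultured cells, and several have left processed pseudogenes, which are intronless genomic copies of an mRNA.

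A pair of members shares much of its coding sequence in 3 cases, and for the actins and the regulatory light chains the first coding bases show where reads of the pair can be told apart. In the lines below, read 5′ to 3′ on the coding strand of the GENCODE annotation on GRCh37 (hg19), capitals mark the bases that differ within the pair. The lines for the actins cover the acidic start of the protein, which is the stretch by which the isoforms are known to differ.
ACTB, chr7:5569259-5569288, minus strand: atggaTgaTgaTatcgccgcgctCgtcGtC
ACTG1, chr17:79479351-79479380, minus strand: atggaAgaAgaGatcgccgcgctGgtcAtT
MYL12A, chr18:3253246-3253275, plus strand: atgtcgagcaaaaGAAcaaagaccaagacc
MYL12B, chr18:3272897-3272926, plus strand: atgtcgagcaaaaAGGcaaagaccaagacc
Of these 30 bases, 6 differed between the actins and 3 between the light chains. Over the whole coding sequence, ACTB and ACTG1 were identical at 91.3% of 1125 positions, TMSB4X and TMSB10 at 72.0% of 132, and MYL12A and MYL12B at 95.2% of 516. The longest identical run was 59 bases in the actins, 10 in the thymosins and 77 in the light chains, so that of the 3 pairs only the light chains held a run longer than the 75 bases that the peak caller recorded as the read length.

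The control input held 3237968 reads assigned to genes, 1609215 and 1628753 in its lanes, and the METTL3-KD input held 1833005, 906240 and 926765 in its lanes. The smaller library nevertheless covered more genes, with at least 1 read in 10463 genes against 2730 in the control. Reads per gene piled up at multiples of a base value in the control input, with modes at 508 and 1035 reads. The METTL3-KD input had less sharp modes, at 18.0 and 34.5 reads. In the peak caller's header, the input reads lay 310 to a position in the control and 25.7 in METTL3-KD. Because reads from 1 position are not independent molecules, the log2 ratios of the members have an interval on reads and a wider one on units, which are reads divided by the lower mode of the same input. Both are 95% exact intervals and cover counting error only. The METTL3-KD unit, and any interval that uses it, is less certain. Of genes with at least 10 reads, 20.3% lay close to the modes in METTL3-KD, against 59.5% in the control. METTL3 itself had 0 reads in all 4 input lanes, so the knockdown could not be checked at this depth. Of the epithelial markers, KRT8 (10850 reads in control, 1167 in METTL3-KD) and KRT18 (3535 and 1212) were present in both inputs, KRT19 had 1 and 201, KRT7 had 1 and 0, and EPCAM and CDH1 had 0 in both. Of the mesenchymal markers, VIM had 8978 and 5649 reads and COL1A2 1804 and 353, while CDH2, FN1 and COL1A1 had 0 in both.

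**Figure D1:**
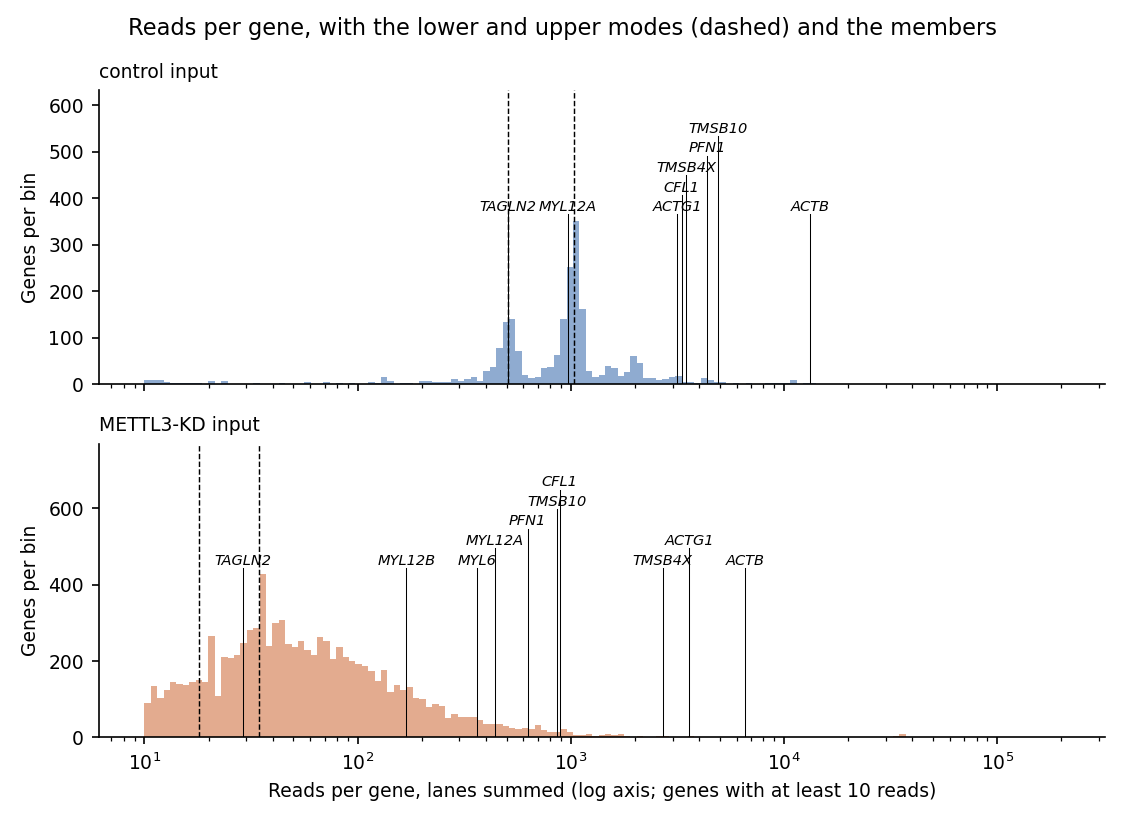
Number of genes (vertical axis) by reads per gene with lanes summed (horizontal log axis) in the control input (above) and the METTL3-KD input (below). Dashed lines are the lower and upper modes, 508 and 1035 reads in the control and 18.0 and 34.5 in METTL3-KD, and solid lines place the members with reads. TAGLN2 (505 reads) and MYL12A (968 reads) sit near these modes in the control.

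The members together took 33911 reads, or 1.05%, of the control input and 16216 reads, or 0.885%, of the METTL3-KD input. Between lanes of a library, their chi-square per degree of freedom was 1.02 over the 8 members with control reads and 1.08 over the 10 members in METTL3-KD, where sampling alone gives about 1. Over all genes it was 2.07 between the control lanes and 1.061 between the METTL3-KD lanes, so the control lanes differed by more than sampling outside the members. Ratios between the inputs are given as log2 of METTL3-KD over control CPM, which are a gene's reads brought to a common library size, after TMM scaling (edgeR's trimmed mean). On that scale, 3 of the 10 members (ACTG1, MYL6 and MYL12B) lay above 2 and 0 lay under −2, and the median was 1.11. Of all 9931 genes with at least 10 reads over both inputs, 79.1% lay above 2 and 7.37% under −2, and 74.3% had 0 control reads. The median of those 9931 genes was 5.60, a value that depends on the prior count wherever the control had 0 reads. Among the 8 members with at least 10 reads in each input, only ACTG1 was above 2 and the median was 0.67, where 7.8% of 1871 such genes were above 2, 21.3% were under −2, and the median was −0.61. Scaling by total counts instead shifted the median gene by −1.36 and moved the median of the 10 members to −0.26. MYL6 and MYL12B were then above 2 and TAGLN2 under −2, beside 78.3% of all tested genes above 2 and 12.7% under −2. The members' ratios are therefore also given relative to the median of these 1871 genes, a difference that scaling leaves unchanged apart from the prior count. A second reference was chosen after the data were seen: 182 of those genes with a mean CPM of at least 500, whose median log2 ratio was 0.78. It held 6 members, of which 3 (ACTB, ACTG1 and TMSB4X) were above that median.

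**Figure D2:**
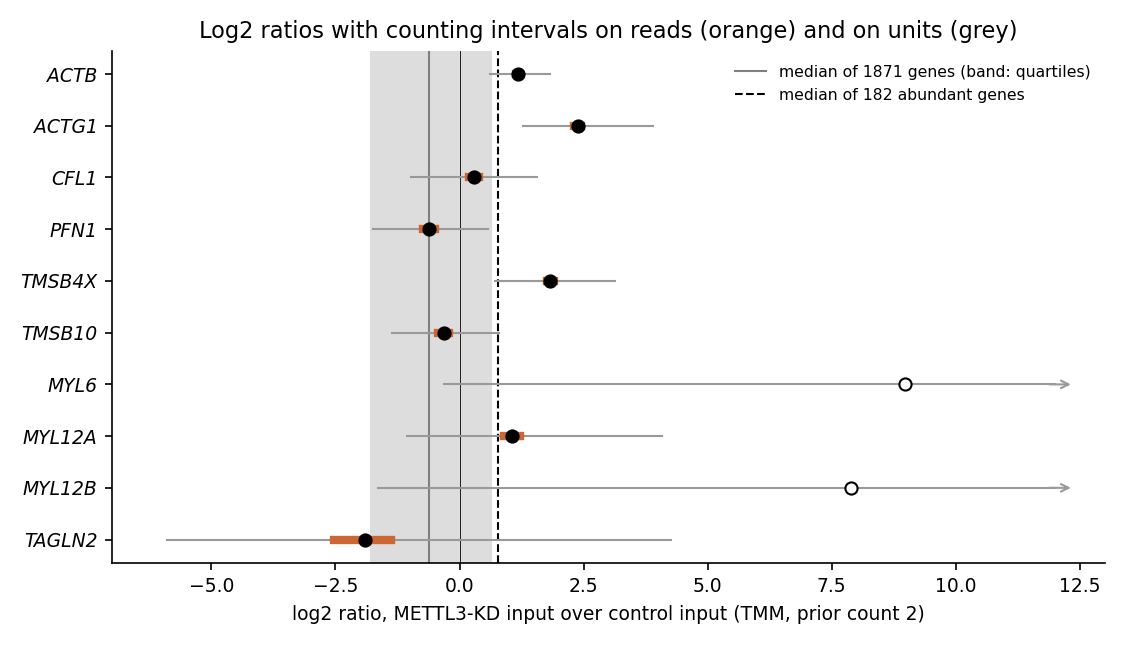
Log2 ratio of METTL3-KD over control input for each member (points), with 95% intervals on reads (orange) and on units (grey). Open points and arrows mark MYL6 and MYL12B, whose control count was 0, so the point depends on the prior count and the interval has no upper end. The grey line and band are the median (−0.61) and quartiles of 1871 genes and the dashed line is the median of 182 abundant genes (0.78).

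By reads, the cytoplasmic actins differed from each other between the inputs, though on units the intervals of their ratio overlapped. ACTG1 took a larger part of the actin reads in METTL3-KD, while the share of ACTB was 39.0% and 40.4% of the members' reads. ACTB (ENSG00000075624.9, chr7:5566040-5603533) counted 6562 and 6680 reads in lanes 1 and 2 of the control input and 3220 and 3329 in those of METTL3-KD. Counting intervals on reads ran from 38.5% to 39.6% for the control share and from 39.6% to 41.1% for the METTL3-KD share, and the gene ranked 12 and 24 among all genes by reads. Its level per length was 2257 CPM per kb of transcript in the control and 1972 in METTL3-KD. The log2 ratio was 1.18, with an interval of 1.13 to 1.22 on reads and 0.61 to 1.82 on units. Relative to the median gene the difference was 1.79 (1.22 to 2.43 on units), whereas with total count scaling the ratio itself was −0.19. The ratio of ACTB was thus above that of the median gene, and ACTB was slightly lower in METTL3-KD as a part of all reads. Relative to the median of the 182 abundant genes (0.78) the difference was 0.40, and the interval on units held that median.

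ACTG1 (ENSG00000184009.5, chr17:79476439-79490873) counted 1576 and 1574 reads in lanes 1 and 2 of the control input and 1761 and 1835 in those of METTL3-KD. It was the only member with more reads in the smaller library apart from the members at 0 in the control. It took 9.29% of the members' reads in the control and 22.2% in METTL3-KD, a 2.39-fold difference, and its rank went from 96 to 33. The log2 ratio was 2.38 (2.31 to 2.45 on reads, 1.29 to 3.90 on units), and it stayed above 0 with total count scaling (1.01). Relative to the median gene it was 2.99 (1.90 to 4.51 on units), at the 94.3rd percentile of the 1871 genes. The reads of ACTB over those of ACTG1 were 4.20 (4.04 to 4.37) in the control but 1.82 (1.75 to 1.90) in the METTL3-KD input, a 2.31-fold difference that needs no scaling. On units these intervals were 1.74 to 12.9 and 1.53 to 2.17 and overlapped, since ACTG1 amounted to only 6.21 units in the control. The muscle actins ACTA1, ACTA2, ACTC1 and ACTG2 and the actin-like ACTBL2 had 0 reads in both inputs.

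**Figure D3:**
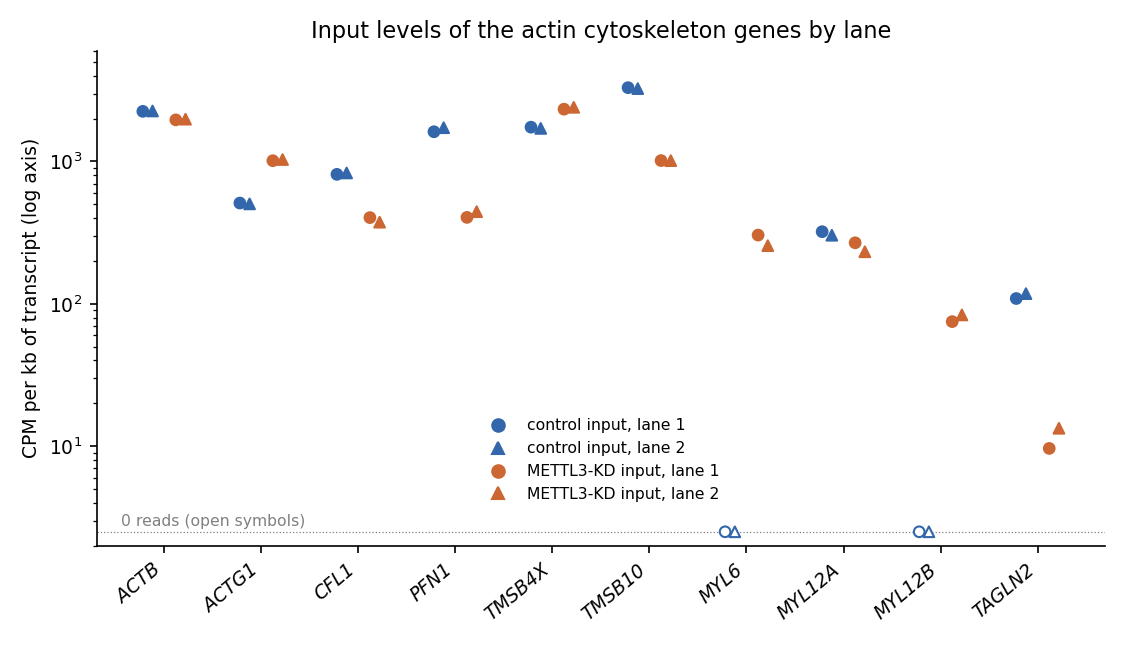
Input level of each member in CPM per kb of transcript (vertical log axis), with 1 symbol per lane, circles for lane 1 and triangles for lane 2, control in blue and METTL3-KD in orange. Lanes of an input lie close together, least so for TAGLN2 in METTL3-KD (12 and 17 reads). On this scale ACTG1, TMSB4X, MYL6 and MYL12B are higher in METTL3-KD, ACTB, CFL1 and MYL12A, which TMM scaling puts above 0, are lower, and open symbols mark 0 reads.

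Relative to the median of the 1871 genes, the monomer-binding proteins parted into 1 gene that was higher and 3 that lay nearer. TMSB4X (ENSG00000205542.6, chrX:12993229-12995346) counted 1744 and 1730 reads in lanes 1 and 2 of the control input and 1314 and 1385 in those of METTL3-KD. Among the members it took 10.2% of the reads in the control and 16.6% in METTL3-KD, a 1.62-fold difference. The level per length was 1725 CPM per kb and 2367, respectively. The log2 ratio was 1.83 (1.76 to 1.90 on reads, 0.72 to 3.14 on units), or 2.44 (1.33 to 3.75 on units) relative to the median gene. TMSB4X was therefore, after ACTG1, the member with reads in both inputs that stood farthest above the median gene. Its interval on units held the median of the 182 abundant genes (0.78), so TMSB4X was not resolved from that second median.

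TMSB10 (ENSG00000034510.4, chr2:85132780-85133795) showed the other order, with 2449 and 2441 reads in lanes 1 and 2 of the control input and 424 and 433 in those of METTL3-KD. It was the highest member per length in the control, at 3276 CPM per kb, and stood at 1014 in METTL3-KD. The share it took of the members' reads was 2.73-fold lower in METTL3-KD, 5.28% against 14.4%. The log2 ratio was −0.32 (−0.43 to −0.21 on reads, −1.36 to 0.79 on units), which is 0.29 above the median gene. By reads, the order of the thymosins thus differed between the inputs. TMSB4X over TMSB10 reads were 0.710 (0.680 to 0.742) in the control but 3.15 (2.92 to 3.40) in the METTL3-KD input, a 4.43-fold difference. Of the 3 ratios between members with reads in both inputs that were compared, this was the only one whose intervals did not overlap on units, at 0.226 to 2.04 and 2.24 to 4.42. That narrow gap rests on 7 and 10 rounded units in the control, with the lower mode as the unit. A larger unit would widen the intervals, and was not tested. The control interval on units included 1, so the order of the thymosins in the control was not resolved on units. Copies of TMSB4X elsewhere in the genome touch this ratio, and how their reads were assigned was not tested.

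PFN1 (ENSG00000108518.7, chr17:4848947-4852356) counted 2101 and 2270 reads in lanes 1 and 2 of the control input and 296 and 332 in those of METTL3-KD. Its share of the members' reads was 12.9% and 3.87%, which is 3.33-fold lower in METTL3-KD. The log2 ratio was −0.61 (−0.73 to −0.48 on reads, −1.75 to 0.58 on units), so that PFN1 lay 0.01 from the median gene. CFL1 (ENSG00000172757.8, chr11:65590493-65629497) counted 1627 and 1684 reads in lanes 1 and 2 of the control input and 455 and 432 in those of METTL3-KD. On the TMM scale its log2 ratio was 0.29 (0.18 to 0.40 on reads, −0.97 to 1.57 on units), or 0.90 (−0.36 to 2.18 on units) relative to the median gene. CFL1 over PFN1 reads were 0.757 in the control and 1.41 in METTL3-KD, with intervals on units that overlapped. PFN1, CFL1 and TMSB10 were thus each a smaller part of the members' reads in METTL3-KD, and on units none of the 3 could be told from the median gene at this depth. Relative to the median of the 182 abundant genes, PFN1 lay at −1.38, TMSB10 at −1.10 and CFL1 at −0.49. ACTB, ACTG1 and TMSB4X lay above that second median. On units, only the intervals of ACTG1 (from 1.29) and PFN1 (up to 0.58) left out its value of 0.78. The intervals of ACTB, TMSB4X, TMSB10 and CFL1 held it.

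**Figure D4:**
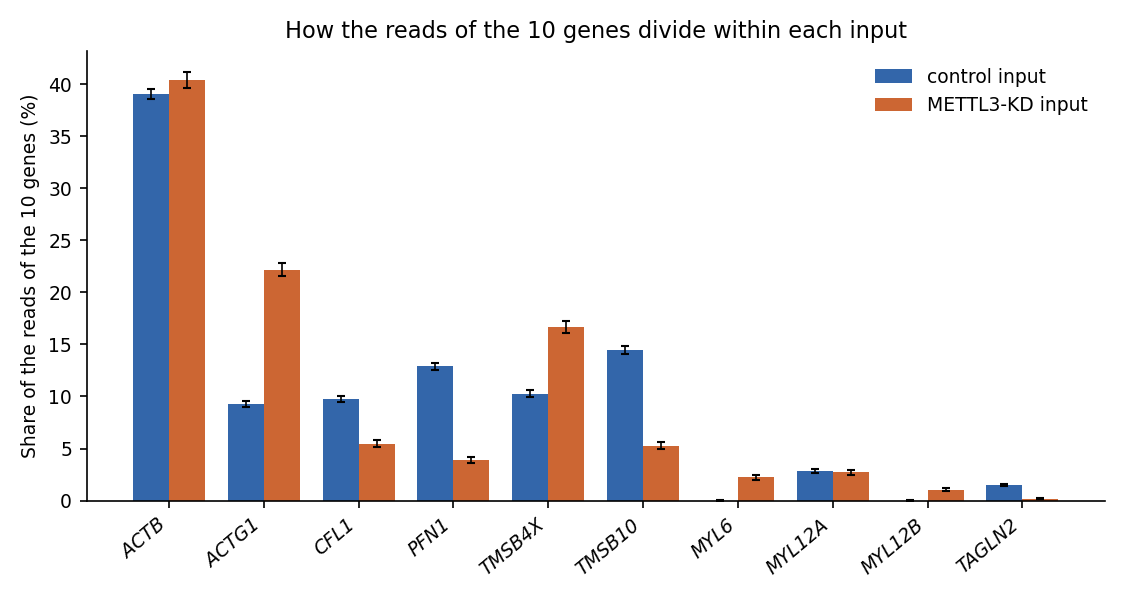
Share of the reads of the 10 genes taken by each gene (%, vertical axis from 0) in the control (blue) and METTL3-KD (orange) inputs, with 95% exact binomial intervals on reads. ACTG1 goes from 9.29% to 22.2% and TMSB4X from 10.2% to 16.6%, while PFN1 and TMSB10 take 12.9% and 14.4% in the control and 3.87% and 5.28% in METTL3-KD.

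The myosin light chains MYL6 and MYL12B had reads only in the METTL3-KD input. MYL6 (ENSG00000092841.14, chr12:56552130-56557280) was at 0 in both control lanes and counted 195 and 168 reads in lanes 1 and 2 of METTL3-KD, where its level was 280 CPM per kb. MYL12B (ENSG00000118680.8, chr18:3261477-3278459) was at 0 in both control lanes too and counted 79 and 90 reads in those of METTL3-KD, at 79.3 CPM per kb. Against a floor of 3 reads over the control library (0.927 CPM), MYL6 was at least 553-fold and MYL12B at least 258-fold higher with TMM scaling, and at least 214-fold and 99.5-fold higher with total count scaling. These bounds count reads as independent. On units, the interval of the log2 ratio began at −0.32 for MYL6 and −1.64 for MYL12B, and relative to the median gene it began at 0.29 for MYL6 and −1.03 for MYL12B. That median covers only genes with at least 10 reads in each input, which leaves out MYL6 and MYL12B by their control count. The values relative to it therefore do not show that either gene was high. Without that reference, neither interval on units excluded 0. Of all genes tested, 74.3% had 0 control reads as well.

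MYL12A (ENSG00000101608.8, chr18:3247479-3256234), the neighbour and close copy of MYL12B, counted 495 and 473 reads in lanes 1 and 2 of the control input and 233 and 206 in those of METTL3-KD. It took 2.85% and 2.71% of the members' reads, with a log2 ratio of 1.05 (0.89 to 1.22 on reads, −1.05 to 4.09 on units), or 1.66 (−0.44 to 4.70 on units) relative to the median gene. The control reads of the regulatory light chains thus fell on MYL12A alone, while in METTL3-KD there were 2.60 MYL12A reads for each MYL12B read and 0.827 MYL6 reads for each MYL12A read. The control reads of MYL12A amounted to only 1.91 units, so a difference between the inputs in this division was not resolved. Another regulatory light chain, MYL9, had 0 reads in the control and 87 in METTL3-KD, and MYL6B had 0 in both.

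TAGLN2 (ENSG00000158710.10, chr1:159887897-159895297) was the member with the lowest ratio. It counted 241 and 264 reads in lanes 1 and 2 of the control input and 12 and 17 in those of METTL3-KD, and its rank among all genes went from 1771 to 7145. Its share of the members' reads was 1.49% in the control and 0.179% in METTL3-KD, an 8.33-fold difference. The log2 ratio was −1.90 (−2.52 to −1.39 on reads), and −3.24 with total count scaling. These reads amounted to 0.995 units in the control and 1.61 units in METTL3-KD, and the interval on units ran from −5.89 to 4.26. Relative to the median gene the ratio was −1.29 (−5.28 to 4.87 on units), so its sign was not resolved on units. The related TAGLN and TAGLN3 had 0 reads in both inputs, and calponin CNN2 of the same family had 1045 and 310, a log2 ratio of 0.44.

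Compared per length, the order in the control was TMSB10, ACTB, TMSB4X, PFN1, CFL1, ACTG1, MYL12A and TAGLN2, from 3276 to 113 CPM per kb, with MYL6 and MYL12B at 0. The intervals on units of all neighbours in that order overlapped. In METTL3-KD the order was TMSB4X, ACTB, ACTG1, TMSB10, PFN1, CFL1, MYL6, MYL12A, MYL12B and TAGLN2, from 2367 to 11.5 CPM per kb. There the intervals of 3 pairs of neighbours did not overlap: ACTB (1774 to 2185) with ACTG1 (886 to 1175), TMSB10 (753 to 1355) with PFN1 (296 to 592), and MYL12A (158 to 366) with MYL12B (34.7 to 144). ACTG1 was the member that moved up most, from 6th to 3rd of the members, apart from those at 0 in the control. Outside the lists used here, the genes nearest to ACTB in level per length over the 2 inputs were EEF1A1P6, SNORD3C and EEF1A1, at distances of 0.0995, 0.188 and 0.218 in log2 CPM per kb.

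Exact copies of the members elsewhere in the genome bear on where their reads can be placed. Of the windows of 75 bases in the TMSB4X transcript, 47.8% occurred at another place, against 13.4% for TAGLN2, 10.8% for PFN1, 5.29% for ACTB, 1.47% for MYL12A, 0.551% for MYL12B and 0% for ACTG1, CFL1, TMSB10 and MYL6. With windows of 50 bases these shares were 74.5% for TMSB4X, 21.6% for TAGLN2, 19.1% for ACTB, 16.8% for PFN1, 14.1% for MYL12A, 12.03% for MYL12B, 8.24% for ACTG1, 2.43% for TMSB10, 1.67% for MYL6 and 0.585% for CFL1. Of the 548 windows of 75 bases in TMSB4X, 209 occurred within 1000 bases of the pseudogene TMSB4XP8, and all 79 PFN1 windows found elsewhere lay in PFN1P1. TMSB4X is thus the member whose reads can least be assigned to a single place.

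**Figure D5:**
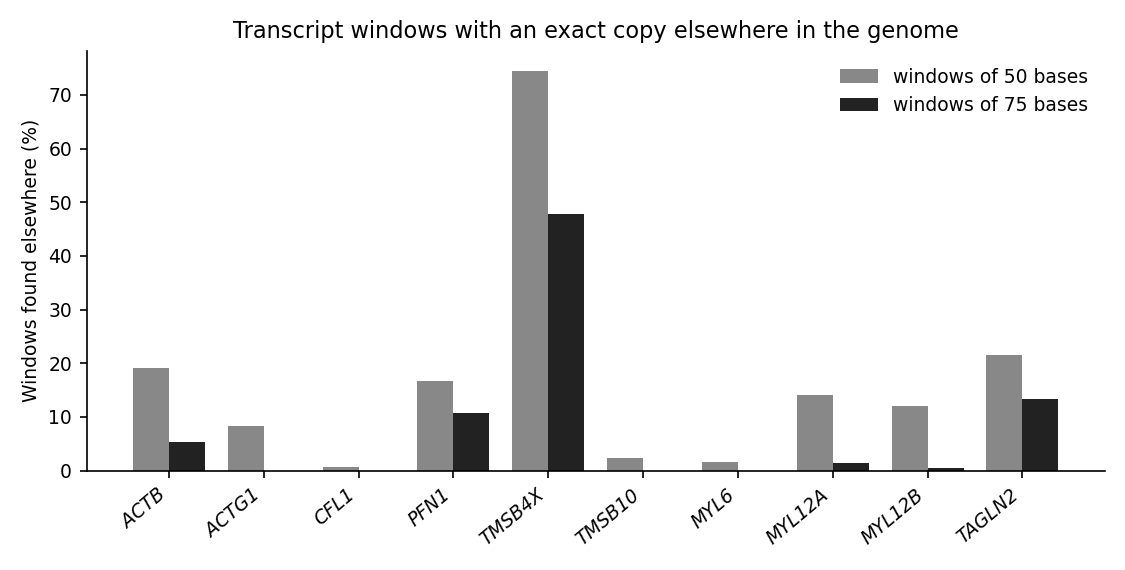
Share of the windows of each member's transcript (%, vertical axis from 0) that occur as an exact copy elsewhere in GRCh37, for windows of 50 bases (grey) and 75 bases (black). TMSB4X stands highest at 74.5% and 47.8%, and ACTG1, CFL1, TMSB10 and MYL6 have no such window at 75 bases.

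Of 69 pseudogenes named after the members, 7 had at least 10 reads over both inputs. TMSB4XP8 had 849 reads in the control and 832 in METTL3-KD, while TMSB4XP4 had 1 and 412, TMSB4XP6 had 4 and 280, and TMSB4XP1 had 4 and 261. The pseudogenes of TMSB4X thus took 19.8% of the reads of gene and pseudogenes in the control and 39.8% in METTL3-KD. PFN1P1 had 28 and 71 reads, ACTBP2 had 0 and 82, and TAGLN2P1 had 0 and 32, the last being 52.5% of the reads of TAGLN2 and its pseudogene in METTL3-KD. With these reads added, the log2 ratio was 2.24 for TMSB4X, −0.46 for PFN1 and −0.85 for TAGLN2. Whether such reads come from the gene or from the copies was not tested.

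Peaks of m6A enrichment were found in the gene bodies of 2 members in the control and of 0 members in METTL3-KD, among 2298 control and 830 METTL3-KD peaks with a q value under 0.01. The control peaks lay in MYL6 and MYL12B, which are the members with 0 reads in the control input. A control peak lay in 17.1% and a METTL3-KD peak in 5.7% of 8881 genes with at least 10 reads, so the 2 of 10 and 0 of 10 members are near the background. Control peaks were in 17.7% of 6577 genes with 0 control reads and in 15.7% of 2304 genes with control reads. The MYL6 peak (chr12:56555118-56555217) had a pileup of 1 fragment at its summit, a fold enrichment of 1.999 and a −log10 q of 2.93. Its summit lay in an intron, 3 bases from exon 7 of 7, and 47 of its bases were exonic. The MYL12B peak (chr18:3268265-3268365) had a pileup of 2 fragments, a fold enrichment of 3.0 and a −log10 q of 6.42, and its summit lay in an intron, 4567 bases from the nearest exon. The peaks of these members thus rest on scaled pileups of 1 and 2. With fold enrichment above 2, only the MYL12B peak was kept.

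METTL3 methylates adenosine in the DRACH context, named by its degenerate letters, and each peak held a match within 50 bases of its summit. The matches are shown with 10 bases on either side, the motif in capitals and its central A the candidate adenosine, on the plus strand of GRCh37.
MYL6, chr12:56555190-56555214: gaatggctgaGGACCttcccagtct
MYL12B, chr18:3268255-3268279: aatatcagagTAACAgtgttgcaga
The MYL6 adenosine lay 34 bases from the summit in exon 7, beyond the coding sequence in 8 of 14 coding transcripts and outside the exons of the other 6. The MYL12B adenosine lay 48 bases from its summit in the intron. A DRACH match stood in 82.4% of 4594 windows of 101 bases around control summits, each strand counted by itself, and in 85.2% of 1654 such windows of METTL3-KD peaks, so a match in both members is a description and no sign of methylation there. No such site can be compared between the conditions, since no member had a METTL3-KD peak.

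A wider list of 122 genes of actin nucleation, turnover, crosslinking, contraction, adhesion and signalling placed the members among their partners, with 118 matched to the table and 87 with at least 10 reads. Of these 87, 56 (64.4%) had a log2 ratio above 2, 3 (3.45%) were under −2, and 50 (57.5%) had 0 control reads, set against 79.1%, 7.37% and 74.3% of all genes tested. Restricted to the 33 with at least 10 reads in each input, 2 were above 2 and 3 under −2 and the median was 0.25, compared with 0.67 for the 8 members and −0.61 for all 1871 genes. The lowest were the formin DIAPH1, which nucleates filaments (2940 control and 89 METTL3-KD reads, log2 ratio −2.84), the monomer-binding TWF2 (1033 and 36, −2.63), and ACTR3, a core subunit of the Arp2/3 complex (2169 and 84, −2.49). The highest were the membrane linker NF2 (12 and 348, 6.71), the integrin ITGB1 (536 and 1435, 3.61) and the Arp2/3 subunit ARPC1B (522 and 417, 1.86). These ratios are on the TMM scale, without an interval on units, and the 12 control reads of NF2 lie far under the lower control mode of 508. With total count scaling, 7 of the 33 were under −2 and 2 above 2, and ITGB1 and NF2 were the 2 above.

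By role, the Arp2/3 complex, which branches filaments, had 5 of 9 tested genes above 2 and 1 under −2, and the same 5 had 0 control reads. Nucleation factors had 8 of 11 above and 1 under, and factors of capping, severing and recycling 11 of 15 above and 1 under. Crosslinking proteins had 6 of 12 above, the tropomyosin group 2 of 4, nonmuscle myosin heavy chains 4 of 6, membrane and adhesion linkers 8 of 11 and SRF with its cofactors 1 of 1, each with 0 under −2. Paralogs of the members had 5 of 6 above, among them CFL2 (0 and 108 reads) and DSTN (1 and 146), which act on filaments as CFL1 does, and PFN2 (0 and 74) and PFN4 (0 and 24). A control peak lay in 28.7% of the 87 genes and a METTL3-KD peak in 14.9%, beside 17.1% and 5.7% over all genes. Peaks were counted anywhere in the gene body, introns included. Gene length was not matched, so these shares do not show enrichment of m6A in the list.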

How the data were processed

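Samples were grouped by shRNA and by input or m6A RNA per the labels, and the 2 lanes of each library were summed. The members and gene lists were chosen with earlier results of these data known. Per the labels, libraries followed a stranded kit, reads were aligned to hg19, and the authors deposited raw counts per gene. How the counting treated strand and multimapped reads is not given in the sources used here. The deposited peak lists from MACS2 2.1.1 hold pileup signal, fold enrichment, which is a ratio to the local background, and −log10 q values. The authors called 1 list per condition on its lanes, with a q limit of 0.05 per the file headers, and q under 0.01 was used here. For significant peaks the study also set a limit of 2 on fold change, which was used here only as an alternative.

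CPM were scaled by TMM over all genes (edgeR 4.0.16, prior count 2) for genes with at least 10 reads over both inputs, with a threshold of 2 on the log2 ratio as in the study. With 1 library per condition no p-value is given between conditions. Intervals are exact (Clopper-Pearson, 95%, scipy 1.17.1). Lengths, exons and sequences came from GENCODE release 44 on GRCh37, canonical transcripts. Symbols were matched for 55665 of 63568 identifiers. Named were the members, their paralogs, pseudogenes with at least 10 reads, the 3 highest and 3 lowest of the other lists among genes with at least 10 reads in each input, and the 3 genes nearest to ACTB. Scaling (DESeq2 1.42.0 size factors, total counts), prior count, filter, lanes, units, pseudogenes and peak limits were varied. A few items are not reported here.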

Additional observations from a re-analysis of the deposited data

How the results depend on the processing

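The median log2 ratio of the 10 members (1.11) came to 1.37 when DESeq2's size factors were used, −0.26 by total counts, −0.28 with total counts without mitochondrial genes, 1.33 with lanes as replicates in edgeR, 1.68 with lanes as replicates in DESeq2, 0.67 over members with at least 10 reads in each input (chosen after seeing the data) and 1.03 to 1.36 with 1 lane left out. With the lane number as replicate block it was 1.33. Deviations of same-numbered lanes did not move together (correlation −0.0118 over 1871 genes), so the numbers were not taken as pairs. Members above 2 (3) became 2 on units (MYL12B at 1.90, MYL6 at 2.78) and with either total count scaling (ACTG1 under 2), 4 with DESeq2 size factors, lanes as replicates or pseudogenes added (TMSB4X above 2), 6 beyond 1, 1 with at least 10 reads in each input, and 3 to 4 with a lane left out. Members under −2 (0) became 1 with total counts (TAGLN2), 2 without mitochondrial genes (TAGLN2 and PFN1), 1 beyond −1, and 0 to 1 with a lane left out, the 1 being TAGLN2 without METTL3-KD lane 2 (−2.18). Control peaks, and members with one (2), became 1 at q under 0.001, 1 at fold above 2 and 1 in exons only. Over 16 alternatives, ACTG1 and TMSB4X stayed above 0, PFN1 and TAGLN2 below 0, TMSB10 was below 0 in 15, and ACTB, CFL1 and MYL12A were below 0 in 2. MYL6 and MYL12B were above 0 throughout, a sign that their 0 control reads largely fixed in advance. Reads per unit limit every ratio: the control members with reads amounted to between 0.995 and 26.1 units.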
